A study of Drosophila melanogaster with 9 samples.

Results

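The Drosomycin family of Drosophila comprises *Drs*, which encodes the antifungal peptide Drosomycin, and 6 Drosomycin-like genes named *Drsl1* to *Drsl6*. Members were taken by gene name, which gave 7 named genes. Rows for 5 of them, *Drs*, *Drsl2*, *Drsl4*, *Drsl5* and *Drsl6*, were among the 15228 genes of the table, and *Drsl1* and *Drsl3* were not analysed here. The family was picked with its response in *pri* mutants already known, so its values in the mutants are given below as a description and not as tested findings.

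Drosomycin is a small, secreted, cysteine-rich peptide of the defensin type that acts against filamentous fungi. After infection the fat body makes it in large amounts under the Toll pathway, in which a cascade of serine proteases cleaves the ligand Spz, the receptor Tl is activated and the NF-kappaB factors Dif and Dorsal enter the nucleus. *Drs* can also be made locally by surface epithelia such as the trachea, where the Imd pathway can drive it, whereas the Drosomycin-like genes are less well characterised.

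PolyA RNA was measured in whole embryos late in embryogenesis, when the cuticle forms. The study's methods give stage 16, while its results text also includes the preceding stage. The 3 genotypes were *pri* mutants carrying the allele pri S18.1, *ken* mutants of the genotype ken1/Df(2R)BSC660, in which the mutant allele lies over a deficiency that removes *ken*, and controls that the labels call WT and whose sample titles begin with w. *pri* encodes small peptides that trigger the processing of the transcription factor Ovo/Shavenbaby, and *ken* encodes a zinc finger repressor. Each genotype had 3 samples of 200 embryos, and the mutants were picked by hand with the help of a GFP-marked balancer chromosome. The study treats samples as independent. Each pools many animals, and the spread between samples is therefore that between pools.

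Totals ran from 21048610 to 28859395 counts per sample, with a median of 23036142. Values below are normalized counts, which are counts divided by a size factor for each sample. As a check of the labels, *ken* averaged 1240 ± 85.1 normalized counts in *ken* mutants, 6997 ± 1237 in *pri* mutants and 6940 ± 499.9 in controls (SD, n = 3 each). *pri* sample 1 was unlike *pri* samples 2 and 3: the chi-square per degree of freedom was 93.4 between *pri* samples 1 and 2 and 77.7 between 1 and 3, against 7.20 between 2 and 3. Among *ken* samples it was 83.3 between 1 and 2, 35.6 between 1 and 3 and 32.6 between 2 and 3, which singles out no sample, and among controls it was at most 27.0. *ken* sample 1 had the highest *Drs* level of its genotype, and results that rest on *pri* sample 1 or *ken* sample 1 are given with and without them. In whole embryos, fewer cells of a type and less RNA per cell cannot be told apart.

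The family lies on chromosome arm 3L (coordinates of the dm6 assembly, Ensembl annotation), and each member is a single exon that overlaps no other annotated gene. *Drsl2* (FBgn0052279) is at 3L:3314349-3314681, *Drsl4* (FBgn0052282) at 3L:3315620-3315942 and *Drsl5* (FBgn0035434) at 3L:3316781-3317144, all on the plus strand. *Drsl3*, which had no row, sits between *Drsl2* and *Drsl4*. The cluster from *Drsl2* to *Drsl5* spans 2796 bp, and 838 bp separate *Drsl4* from *Drsl5*. *Drsl6* (FBgn0052268) is at 3L:3336032-3336418 on the minus strand beside *Drsl1*, and *Drs* (FBgn0283461) stands alone at 3L:3369556-3369942 on the plus strand, 33.137 kb further on. The members are paralogs, and how reads that match several of them were counted is not given in the sources used here, so the division of counts between them is uncertain to that extent.

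In *pri* mutants 2 neighbouring members moved in opposite directions. *Drsl4*, nearly silent in controls, was 63.6-fold higher, and *Drsl5*, the most abundant member in controls, was 13.3-fold lower. Neither gene moved comparably in *ken* mutants, where *Drsl5* stayed near its control level. *Drs* itself was far above the controls in 1 *pri* sample and above them in 2 *ken* samples, while the other 3 mutant samples were within or below the control range.

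*Drsl5* is a Drosomycin-like gene expressed in these embryos without any immune challenge. It had 71.1, 73.1 and 46.0 normalized counts in *pri* samples 1, 2 and 3, 773, 1077 and 726 in *ken* samples, and 816, 967 and 749 in controls. All *pri* samples were far below every *ken* and control sample, and the *ken* samples overlapped the controls. On the log2 scale the fitted difference was -3.74 in *pri* mutants against controls (SE 0.23, 95% interval -4.24 to -3.23). In *ken* mutants against controls it was 0.02 (SE 0.19, interval -0.42 to 0.46), an interval that does not reach the size of the difference in *pri* mutants. Between the mutants, *pri* against *ken*, it was -3.76 (SE 0.23).

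*Drsl4* showed the reverse. It had 393, 234 and 232 normalized counts in *pri* samples, 4.11, 16.8 and 23.7 in *ken* samples, and 8.73, 2.70 and 1.14 in controls. Every *pri* sample was above every *ken* and control sample. The *ken* samples overlapped the controls, since *ken* sample 1 lay below control sample 1 while *ken* samples 2 and 3 were higher than all 3 controls. The fitted log2 difference was 5.99 in *pri* mutants against controls (SE 0.69, interval 4.43 to 7.55), 1.71 in *ken* mutants against controls (SE 0.72, interval 0.08 to 3.34) and 4.28 between *pri* and *ken* mutants (SE 0.61). By size, *Drsl4* was the 5th of the 561 genes called higher in *pri* mutants than in controls, and *Drsl5* the 44th of the 583 called lower. Since the family was chosen on this contrast, nothing is read from these ranks. That of *Drsl4* also rests on only 10, 3 and 1 counts in controls.

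*Drs*, the founding member, varied widely within both mutant genotypes. It had 483, 10.6 and 18.8 normalized counts in *pri* samples, 170, 56.9 and 17.8 in *ken* samples, and 27.1, 16.2 and 30.8 in controls. Sample 1 was the highest in each mutant, the other 2 *pri* samples were within or below the control range, and both mutants overlapped the controls. The fitted log2 difference was 2.79 in *pri* mutants (SE 1.33, interval -0.21 to 5.78) and 1.73 in *ken* mutants (SE 1.31, interval -1.21 to 4.68). Without *pri* sample 1 and *ken* sample 1, an alternative added after seeing the data, the differences were -0.73 in *pri* mutants and 0.59 in *ken* mutants. The direction for *Drs* in *pri* mutants thus rests on 1 sample. Since *ken* sample 1 was singled out by its *Drs* level, the smaller *ken* difference followed from that choice, and nothing is read from it.

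*Drsl2* and *Drsl6* were close to the detection limit. *Drsl2* had 3.44, 1.06 and 7.32 normalized counts in *pri* samples, 5.76, 11.6 and 4.94 in *ken* samples, and 0, 2.70 and 1.14 in controls. The *ken* samples were all above the controls, and the *pri* samples overlapped them. The fitted log2 difference of *Drsl2* was 1.54 in *pri* mutants (SE 0.95) and 2.41 in *ken* mutants (SE 0.85, interval 0.48 to 4.33), at levels of a few reads. *Drsl6* had 3 counts in all, 1 each in *pri* sample 2, *ken* sample 2 and *ken* sample 3, and 0 in controls, too few for a fold change to be given.

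**Figure D1:**
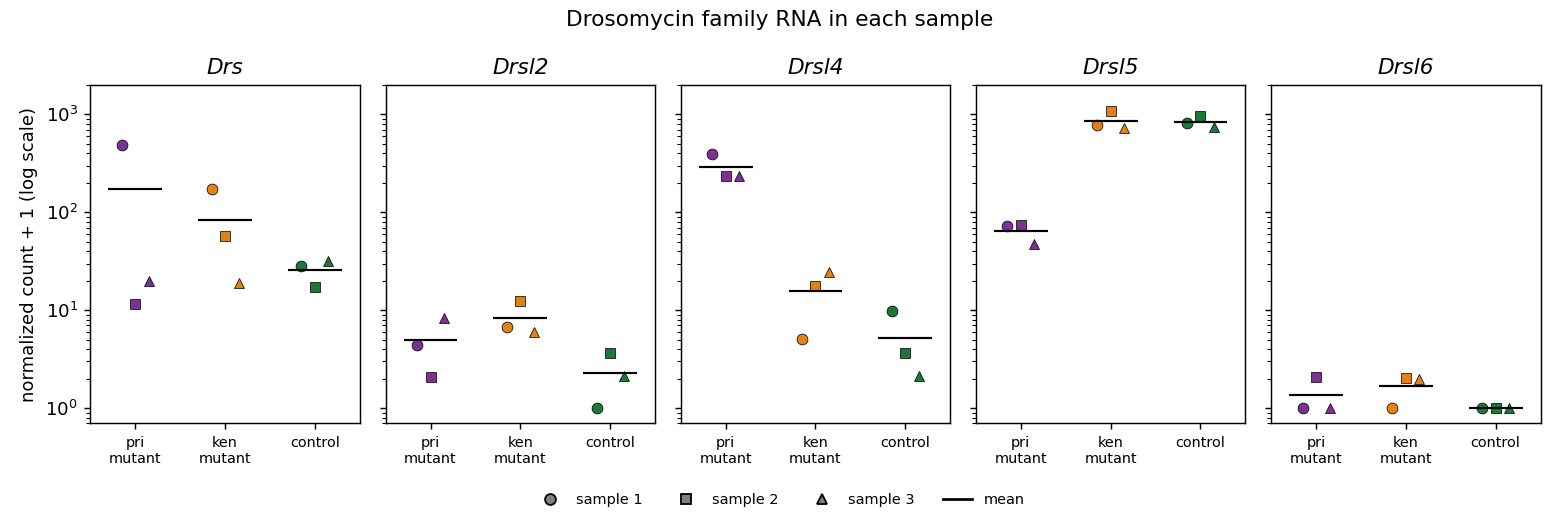
Normalized counts plus 1 on a log axis for each of 5 Drosomycin family members in *pri* mutants, *ken* mutants and controls; points are the 3 samples of each genotype, marked by sample number, and lines are the means. *Drsl4* sits between 232 and 393 in *pri* mutants and at 23.7 or below elsewhere, *Drsl5* between 46.0 and 73.1 in *pri* mutants and at 726 or above elsewhere.

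**Figure D2:**
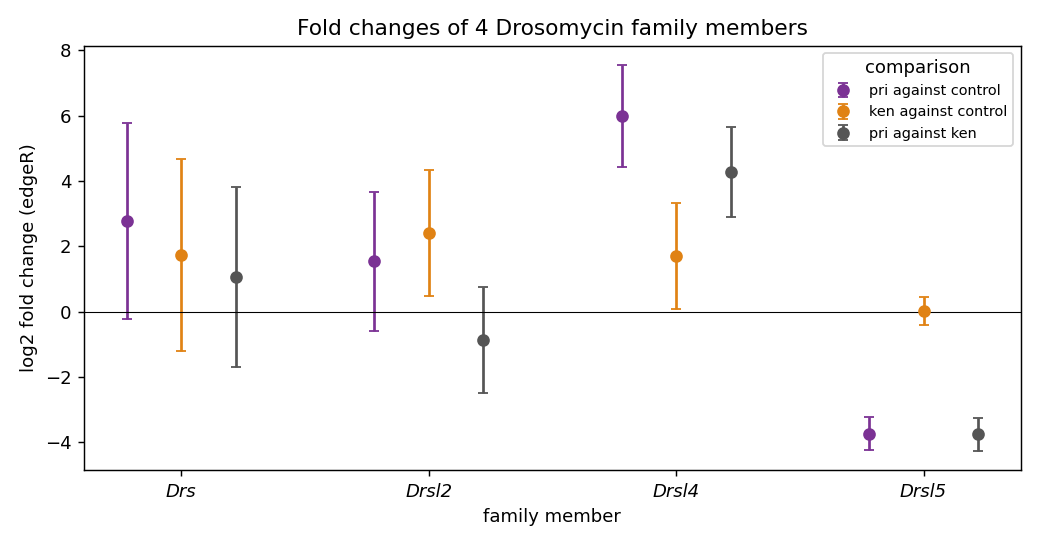
Fitted log2 fold changes (edgeR) of 4 family members in *pri* mutants against controls, *ken* mutants against controls and *pri* against *ken* mutants, with 95% intervals. The intervals of *Drsl4* and *Drsl5* lie far from 0, on opposite sides, in *pri* against control and *pri* against *ken*, while that of *Drs* includes 0 in *pri* and in *ken* mutants against controls.

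At an adjusted p below 0.05 (edgeR, over all genes), 1 of the 5 members was called higher in *pri* mutants than in controls, *Drsl4*, and 1 lower, *Drsl5*. Over all genes tested in that comparison 3.68% were called higher and 3.83% lower, and since the family was chosen on this contrast nothing is read from the difference. In *ken* mutants against controls 0 members were called in either direction, against 2.21% of all genes called higher and 2.81% lower. There 2 members had an unadjusted p under 0.05, and DESeq2 called 0. The share of all genes at an unadjusted p under 0.05 was not taken. No count at that threshold, here or below, is therefore read as a result. Between *pri* and *ken* mutants 1 member was called higher and 1 lower, the same 2 genes, where 4.03% of all genes were called higher and 4.09% lower, 8.12% in either direction. Samples of the 2 genotypes did not overlap for 1 member higher and 1 lower in *pri* mutants against controls, beside 15.5% and 15.6% of all genes. In *ken* mutants against controls that held for 1 member higher, *Drsl2*, beside 12.3% of all genes. The median log2 difference over the 4 members other than *Drsl6* was 2.16 in *pri* mutants, with 3 above 0 and 1 below, and 0.45 without *pri* sample 1, with 2 above and 2 below. In *ken* mutants it was 1.72. Over all genes the medians were 0.02 and 0.01. As the members went both ways in *pri* mutants, their median describes no common shift. Both comparisons share the control samples.

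The call for *Drsl4* and that for *Drsl5* in *pri* mutants against controls were made under all 17 alternative settings, each sample left out in turn among them. The log2 difference of *Drsl4* ran from 5.60 to 7.08 and that of *Drsl5* from -3.85 to -3.55, and without *pri* sample 1 and *ken* sample 1 they were 5.68 and -3.83. *Drs* was called under 0 of 17, with log2 differences from -0.73 to 3.34. *Drsl4* in *ken* mutants was not called with all samples, but was called at 2.17 (SE 0.53) when *pri* sample 1 and *ken* sample 1 were both left out. As *ken* sample 1 had the lowest *Drsl4* level of its genotype, leaving it out was bound to raise this difference.

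The make-up of family RNA therefore differed between genotypes. The summed family count was 950, 320 and 304 in *pri* samples, 954, 1163 and 773 in *ken* samples, and 852, 989 and 783 in controls. *Drsl5* supplied 7.48% to 22.8% of it in *pri* mutants, 81.1% to 93.9% in *ken* mutants and 95.8% to 97.8% in controls. *Drsl4* supplied 41.4% to 76.3% in *pri* mutants, 0.431% to 3.07% in *ken* mutants and 0.146% to 1.02% in controls. *Drs* made up 50.8% of the family count in *pri* sample 1 and 17.9% in *ken* sample 1. In *pri* samples there were 5.53, 3.20 and 5.05 counts of *Drsl4* for each count of *Drsl5*, against 0.00532, 0.0156 and 0.0327 in *ken* samples and 0.0107, 0.00279 and 0.00152 in controls. This ratio is taken within a library and does not depend on the scaling between libraries.

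**Figure D3:**
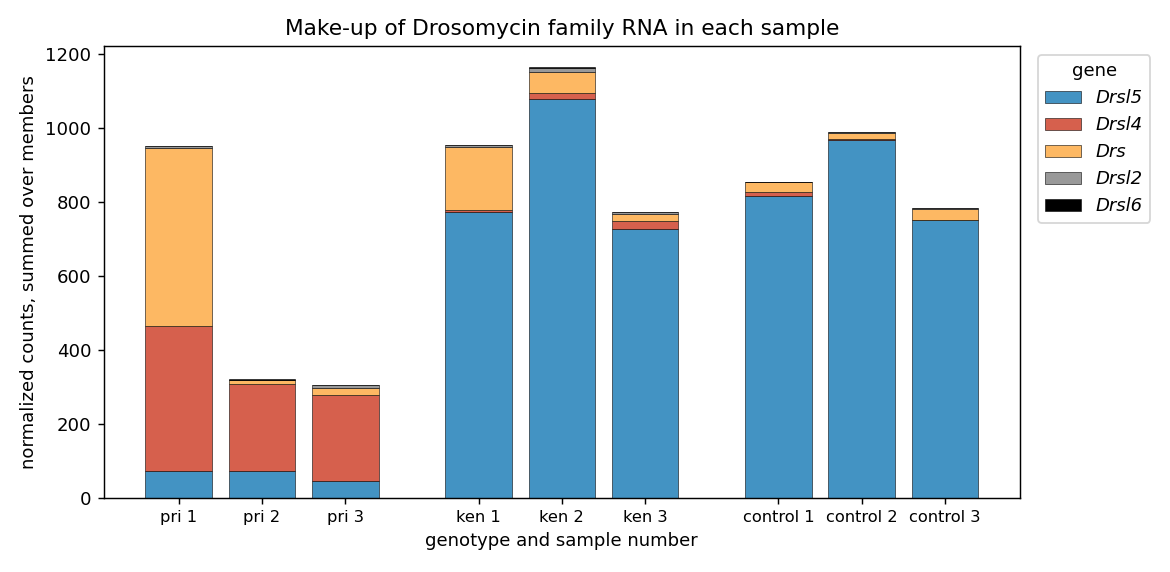
Normalized counts of 5 family members stacked for each sample, *pri* mutants at the left, then *ken* mutants, then controls. *Drsl5* fills most of each *ken* and control bar, *Drsl4* most of the bars of *pri* samples 2 and 3, and *Drs* 50.8% of the bar of *pri* sample 1.

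Per kb of transcript, which allows levels to be set side by side between genes, *Drsl4* was the first member in *pri* mutants at 887 ± 286 normalized counts per kb (SD, n = 3, as below), followed by *Drs* at 441 ± 698 and *Drsl5* at 174 ± 41.4. The ranges of *Drsl4* and *Drs*, and of *Drs* and *Drsl5*, overlapped, whereas those of *Drsl4* and *Drsl5* did not. In *ken* mutants *Drsl5* led at 2359 ± 524 per kb, followed by *Drs* at 211 ± 205, *Drsl4* at 46.1 ± 30.8 and *Drsl2* at 22.3, and the last 3 of these overlapped their neighbours. In controls *Drsl5* led at 2320 ± 306 per kb, ahead of *Drs* at 63.8 ± 19.6 and of *Drsl4* at 13.0 ± 12.4, which overlapped *Drsl2* at 3.84. Across the 9 samples, log2 levels of *Drsl4* and *Drsl5* had a Pearson correlation of -0.92, and the other pairs of the 4 members ran from -0.08 to 0.27. The 9 points fall in 3 genotypes and share libraries, so these are descriptions only.

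Genes lying among the members were also examined. Between *Drsl2* and *Drs*, a span of 55.594 kb, 8 genes outside the family had a row, and 0 of them were called in *pri* mutants against controls by edgeR (0 at an unadjusted p under 0.05, 0 by DESeq2), with log2 differences from -0.74 to 0.12. In *ken* mutants 0 of the 8 were called by edgeR, 3 had an unadjusted p under 0.05 and DESeq2 called 2, with log2 differences from -0.79 to 2.88. Of the 5 nearest genes with a row on each side, 10 in all, 2 were called lower in *pri* mutants, beside 3.83% of all genes. They were *CG14960* at -2.49 and *CG12009* at -1.89, both on the side of *Drsl2*. Of these 10 genes, 5 had an unadjusted p under 0.05 by edgeR in *pri* mutants, and DESeq2 called 3. In *ken* mutants 1 of the 10 was called lower, beside 2.81% of all genes. It was *ZnT63C*, the nearest of them to *Drsl2*, at -0.46 (SE 0.10, edgeR adjusted p = 0.0317). There 1 had an unadjusted p under 0.05 by edgeR, and DESeq2 called 1. These 3 genes were named after their values were seen.

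Genes whose log2 level across the 9 samples was most like that of each member were listed by Pearson r among 9587 genes with a mean of at least 50 normalized counts. The samples fall in 3 genotypes, and r takes no account of the size of a difference. For *Drsl4* the first 5 were *bru3* (r = 0.98), which encodes an RNA-binding protein, *Lcp4* (0.97), which encodes a larval cuticle protein, *CG31103* (0.97), the heparan sulfate proteoglycan gene *Sdc* (0.97) and the protease gene *S1P* (0.96). Mean normalized counts in *pri* mutants, *ken* mutants and controls were 9457, 7354 and 6444 for *bru3*. For *Lcp4* they were 26080, 791 and 135, and for *Sdc* 14050, 12689 and 11969. For *Drsl5* they were asRNA:CR43629, lncRNA:CR43641, *CG14395* and the homeobox gene *E5* (each 0.99), then *CG15370* (0.98). All of these but *CG15370*, which is on the X, lie on chromosome arm 3R. *pri* lies on chromosome III, as does the Drosomycin family, on arm 3L. The part of other sequence differences on the chromosome selected with the *pri* allele was not tested, for these genes or for the members. asRNA:CR43629 is annotated as antisense, and reads from an antisense RNA and its partner may not have been told apart.

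For *Drs* the first 5 were *Ist1* (0.97), *shrb* (0.96) and *CHMP2B* (0.95), which all encode components of the ESCRT-III membrane scission machinery, then the cuticle protein gene *Cpr67B* (0.94) and *CG7299* (0.94). Without *pri* sample 1 and *ken* sample 1 the values for these 5 were 0.82, 0.91, 0.53, 0.63 and 0.69 in the same order. Likeness to *Drs* thus leaned on those samples for several of them. The genotype means of *Ist1* differed little, at 1714 normalized counts in *pri* mutants, 1782 in *ken* mutants and 1566 in controls.

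Other transcripts were also high in *pri* sample 1, where *Drs* was highest. Digestive enzyme genes of the midgut (39 genes, at most 3 at 0 in a sample) summed to 32175, 6106 and 7509 normalized counts in *pri* samples, 15580, 6517 and 11164 in *ken* samples, and 12982, 7586 and 11866 in controls. Bomanins and other induced peptides (18 genes, at most 5 at 0) summed to 3180, 697 and 620 in *pri* samples, 1073, 565 and 288 in *ken* samples, and 1167, 574 and 656 in controls. *pri* sample 1 was the highest of the 9 for *Drs* and for both sums, and *ken* sample 1 was the highest *ken* sample for each. Control sample 1 was likewise the highest control for both sums, and its Bomanin sum was above that of *ken* sample 1, but its *Drs* level, 27.1, was not the highest among controls. Antimicrobial peptide genes outside the family (13 genes, at most 5 at 0) summed to 141, 66.8 and 59.6 in *pri* samples, 34.6, 33.7 and 21.7 in *ken* samples, and 90.8, 40.5 and 47.9 in controls. The summed Toll, Imd and JAK/STAT lists described below were also highest in *pri* sample 1, at 35635, 20673 and 16463. The highest sums among the other samples were 30717, 17421 and 12399. In contrast, the fat body, hemocyte, salivary gland and tracheal marker sums of *pri* sample 1 were the lowest of its genotype. The same held for *ken* sample 1 within its genotype. Control sample 1 was the lowest control for the tracheal sum and the highest control for the others. The part of midgut transcripts in the level of *Drs* was not tested.

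**Figure D4:**
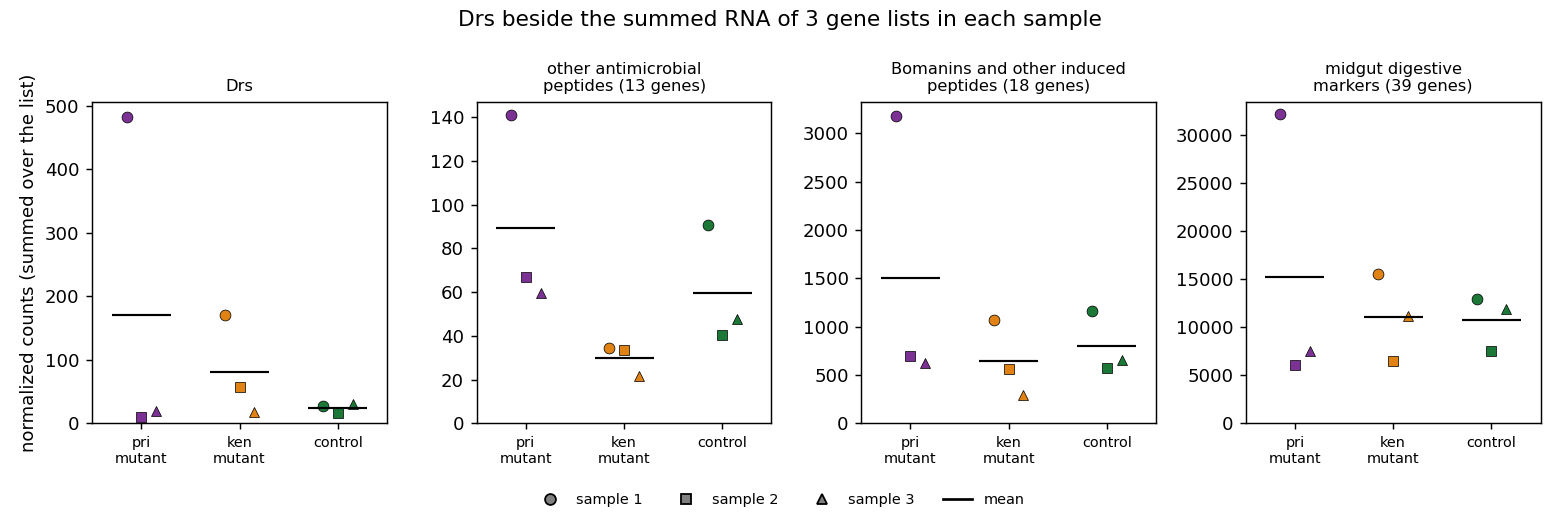
Normalized counts of *Drs* and the summed normalized counts of 3 gene lists (13 other antimicrobial peptide genes, 18 Bomanins and other induced peptides, 39 midgut digestive enzyme genes) in each sample, each panel with its own axis from 0. Points are samples, marked by number, and lines are genotype means. *pri* sample 1 is the highest point in every panel.

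Marker RNA of trachea, fat body, salivary gland and hemocytes, which include tissues known to make Drosomycin, was detected in all genotypes. How far each marker is confined to its tissue was not tested. Tracheal markers (9 genes, none at 0) summed to 73468 to 76450 in *pri* mutants, 94228 to 105466 in *ken* mutants and 99438 to 110221 in controls. In *pri* mutants 1 was called higher, *Cht2* (0.56), and 3 lower, *serp* (-0.55), *verm* (-0.38) and *Gasp* (-0.84). The other tracheal markers, *trh*, *btl*, *pio*, *tnc* and *dys*, were not called there. In *ken* mutants 0 were called by edgeR (1 at an unadjusted p under 0.05, 1 by DESeq2). Fat body markers (11 genes, up to 3 at 0) summed to 75227 to 101600 in *pri* mutants, 65331 to 86237 in *ken* mutants and 82465 to 106040 in controls, and 1 of them, *Lsp1gamma*, was called higher both in *pri* mutants (1.80) and in *ken* mutants (1.37). Salivary gland markers (7 genes, none at 0) summed to 7876 to 10212 in *pri* mutants, 7677 to 10668 in *ken* mutants and 9660 to 10228 in controls. Hemocyte markers (13 genes, none at 0) summed to 22287 to 25470 in *pri* mutants, 12857 to 20275 in *ken* mutants and 18400 to 20239 in controls, and 4 were called higher and 1 lower in *pri* mutants, while in *ken* mutants 1 was called lower, *NimC1* (-0.88). Over all genes 7.51% were called in *pri* mutants and 5.02% in *ken* mutants. *Lsp1gamma*, *NimC1* and the tracheal markers were named after their values were seen. The part of these tissues in the levels of *Drsl4* and *Drsl5* was not tested.

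The remaining immune genes were taken from 5 lists with 86 measured genes in all. In *pri* mutants against controls 11 were called higher and 4 lower (17.4% of the 86, against 7.51% of all genes called in either direction). By list the shares were 43.5% for the Toll pathway and 11.1% for Bomanins and other induced peptides. They were 7.69% for other antimicrobial peptides, 5.26% for the Imd pathway and 7.69% for JAK/STAT outputs, all near the share of all genes. Leaving out 1 sample gave 4 to 10 higher and 1 to 5 lower. The lowest counts of higher genes came without control sample 3 (4), 2 (5) or 1 (6), without any 1 of the *pri* samples it was 7, and with both *pri* sample 1 and *ken* sample 1 left out the counts were 12 and 6. In *ken* mutants 0 of the 86 were called by edgeR, against 5.02% of all genes, 16 had an unadjusted p under 0.05 and DESeq2 called 3, all lower. The median log2 difference was 0.25 in *pri* mutants and -0.01 in *ken* mutants.

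Of 13 other antimicrobial peptide genes, 1 was called in *pri* mutants, *AttB*, which encodes an attacin active against Gram-negative bacteria. It had 29.8, 14.8 and 17.8 normalized counts in *pri* samples, 5.76, 8.42 and 2.96 in *ken* samples, and 2.62, 1.80 and 2.28 in controls, a log2 difference of 3.14 in *pri* mutants (SE 0.48, edgeR adjusted p = 0.00514). In contrast to *Drs*, the *pri* samples of *AttB* did not overlap the controls. *Mtk*, which encodes another antifungal peptide under Toll, had a log2 difference of -1.85 in *ken* mutants (edgeR adjusted p = 0.0689). It was not called in that fit, but was under 3 of 17 alternatives and with both *pri* sample 1 and *ken* sample 1 left out (-2.59, edgeR adjusted p = 0.0192).

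Of 18 genes for Bomanins, which are Toll targets as *Drs* is, and for other induced peptides, 2 were called higher in *pri* mutants. *BomBc2* had 44.7, 53.0 and 55.4 normalized counts in *pri* samples, 5.76, 5.26 and 4.94 in *ken* samples, and 13.1, 16.2 and 7.99 in controls, a log2 difference of 2.01 in *pri* mutants (SE 0.28, edgeR adjusted p = 0.00315). *BomS2* had 522, 282 and 243 in *pri* samples, 166, 97.9 and 54.3 in *ken* samples, and 141, 79.1 and 79.9 in controls, a log2 difference of 1.80 in *pri* mutants (SE 0.44, edgeR adjusted p = 0.0400), and was called under 9 of 17 alternatives. The other 16 did not pass.

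Upstream of *Drs*, 23 Toll pathway genes were measured, of which 7 were called higher and 3 lower in *pri* mutants against controls. Those higher were *grass* (log2 difference 1.54, SE 0.19, edgeR adjusted p = 0.00208), *psh* (0.86, SE 0.15, adjusted p = 0.00853) and *modSP* (0.58, SE 0.11, adjusted p = 0.0139), which encode serine proteases, and 4 genes named after their values were seen, the proteases *spirit* (0.95) and *SPE* (0.53), the recognition protein gene *GNBP1* (0.68) and the ligand gene *spz* (0.54). The study lists an in situ hybridization probe for *SPE*. It also lists probes for *nec*, *cact*, *Rel* and *PGRP-LF*, genes of the Toll or Imd lists that were not called in *pri* mutants. Which of these patterns changed is not stated in its text.

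The 3 called lower were *Toll-9* (-2.13, SE 0.39, edgeR adjusted p = 0.0114), which encodes a Toll-related receptor, the recognition protein gene *PGRP-SD* (-1.27) and the receptor gene *Tl* (-0.37), of which *Tl* was named after its value was seen. *grass* had 829, 522 and 497 normalized counts in *pri* samples, 203, 173 and 197 in *ken* samples, and 208, 205 and 224 in controls. *Toll-9* had 40.1, 13.8 and 13.6 in *pri* samples, 46.1, 47.4 and 55.3 in *ken* samples, and 93.4, 88.1 and 113 in controls. Both separated *pri* samples from all controls. Without control sample 3 the Toll counts were 2 higher and 2 lower, without control sample 2 they were 3 and 1, without control sample 1 they were 4 and 1, without *pri* sample 2 they were 4 and 2, and without *pri* sample 3 they were 5 and 1, while with both *pri* sample 1 and *ken* sample 1 left out they were 7 and 4. Without *pri* sample 1 alone they were 5 and 2, and without *ken* sample 2 they were 7 and 2.

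Of 19 Imd pathway genes 1 was called in *pri* mutants, the receptor gene *PGRP-LC*, at 0.38 (SE 0.09, edgeR adjusted p = 0.0422), under 9 of 17 alternatives. Of 13 genes at the JAK/STAT end, 1 was called lower, *Tep2*, which encodes a thioester-containing protein, at -0.75 (SE 0.16, edgeR adjusted p = 0.0218). The stress peptide gene *TotC* had 16.5, 10.5 and 6.91 normalized counts in *ken* samples and 4.37, 1.80 and 1.14 in controls, a log2 difference of 2.12 (edgeR adjusted p = 0.0518) that did not pass the threshold. It was called under 1 of 15 alternatives, the fit with the replicate number as a block. With that block 2 of the 86 immune genes were called higher and 5 lower in *ken* mutants, and 0 family members.

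**Figure D5:**
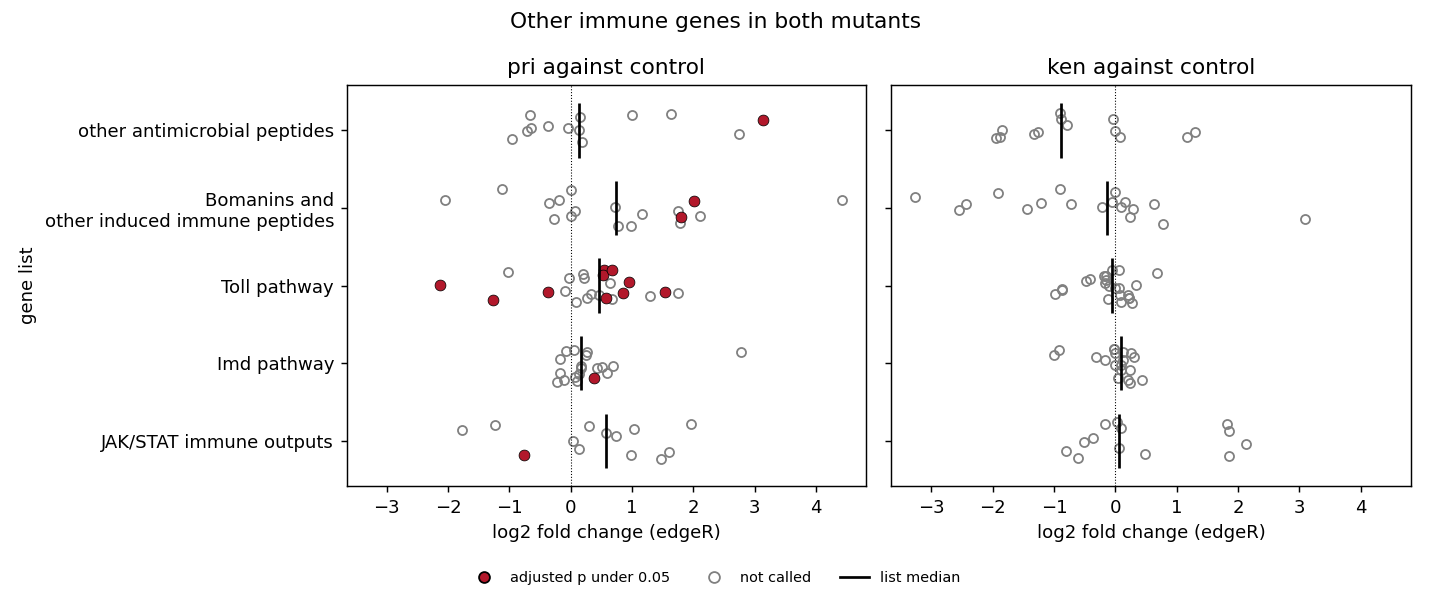
Fitted log2 fold changes (edgeR) of 86 immune genes outside the Drosomycin family in *pri* mutants against controls (left) and *ken* mutants against controls (right), by list. Filled points passed an adjusted p of 0.05, open points did not, and lines are list medians. The left panel has 15 filled points, 10 of them in the Toll list, and the right panel has none.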

How the data were processed

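PolyA RNA of whole embryos was sequenced from strand-specific libraries, and the deposited table holds read counts per gene and normalized values. Per the submitters' notes, the authors aligned reads with STAR 2.6.1d and normalized with DESeq2 1.32.0. The notes name the mouse build mm10, although every gene is a Drosophila gene and the study's methods name dm6. How multiply matching reads and strand were handled is not given in the sources used here. The deposited signal columns equalled the deposited counts divided by DESeq2 size factors, to within a relative difference of 5.12e-10. The table keeps genes with a total of at least 2 counts. No per-sample column was left unused. Columns were mapped to samples by title.

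Counts of all 9 samples were fitted in 1 model with edgeR 4.0.16 (TMM factors, quasi-likelihood test, limma 3.58.1, R 4.3.3), with 3 comparisons and Benjamini-Hochberg adjustment over all genes. Calls were made at an adjusted p below 0.05. Standard errors were derived from the fold change and its F value. The script was tested on simulated data. Members and lists were chosen with earlier results of these data known. Besides the family, the 4 genes with the smallest p in each immune list and comparison could be named, as could the 5 genes most like each member. IDs of 15159 genes were matched to the Ensembl annotation. Alternatives were DESeq2 1.42.0, other size factors, filters on low counts, a robust fit, a fit of the compared genotypes only, a replicate block and each sample left out, and, added after seeing the data, *pri* sample 1 and *ken* sample 1 left out together.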

Additional observations from a re-analysis of the deposited data

How the results depend on the processing

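Among the family, calls changed under 1 setting: with *pri* sample 1 and *ken* sample 1 left out, chosen after seeing the data, 1 member was called higher in *ken* mutants. *Drs* reversed without *pri* sample 1, to -0.73 in *pri* mutants against controls and -2.47 in *pri* against *ken* mutants, and without both samples, to -0.73 and -1.32. Over all samples left out in turn it ran from -0.73 to 3.34 and from -2.47 to 2.20. *Drsl5* in *ken* mutants, near 0, turned to -0.00241, -0.06 and -0.17 without control sample 1, control sample 3 and *ken* sample 2, and ran up to 0.13. *AttD* (2.75 in *pri* mutants with all samples, not called) turned to -0.25 and *BomBc3* (1.78, not called) to -0.0183 without *pri* sample 1, and to -0.25 and -0.0182 without both, while leaving out other samples gave up to 3.89 and 2.23. The cause was not tested.

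For the other immune genes, leaving out 1 sample gave 4 to 10 higher (12 without both) and 1 to 5 lower (6 without both) among *pri* mutants. Among *ken* mutants it gave 0 to 1 higher and 0 to 2 lower. In *ken* mutants the lower count, 0 in the fit reported, was 3 with DESeq2, 1 when only the compared genotypes were fitted and 6 without both samples. With the replicate block 2 were higher and 5 lower. By a fixed rule samples were treated as unpaired, but same-number correlations of deviations ran from -0.11 to 0.55, 8 of 9 above 0.1. They were 0.34 to 0.55 for number 1, 0.47 to 0.55 for number 2 and -0.11 to 0.17 for number 3. Pairs with different numbers ran from -0.56 to 0.39. What a number marks is not given, and its part in the high values of samples numbered 1 was not tested. The block changed no call of a family member. Over the whole table it raised the calls for *pri* against controls to 820 higher and 845 lower. Those for *ken* against controls rose to 505 and 705. Over all genes DESeq2 called 872 genes higher and 837 lower in *pri* mutants, against 561 and 583 with edgeR. For *ken* mutants DESeq2 called 548 and 680, against 337 and 428 with edgeR. The filter of at least 10 counts in 3 samples kept 3 members. Depth limits *Drsl2* and *Drsl6*.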
